A study of Mus musculus with 72 samples.

Results

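Cortical gene expression was compared between 6 male mice labelled M28L_5xFAD and 6 male mice labelled 5xFAD, which are 12 of the 36 mice of the series. The mice were taken by genotype and sex from the labels and from the names of the deposited columns, with no measured value used to choose them. All mice were 7.5 months old, and the labels name no treatment. Both groups carried the 5xFAD transgenes, human amyloid precursor protein and presenilin genes with familial Alzheimer's disease mutations that are driven by a neuronal promoter and lead to amyloid plaques. The groups differed in the M28L variant of Plcg2, and the labels do not give its zygosity. RNA was hybridised to 2 NanoString nCounter panels, Glial and Neuropathology, in which barcoded probes for chosen transcripts are counted directly, with no amplification step. Together they gave 1266 named genes. The other 24 mice were 5xFAD and M28L_5xFAD females and mice of both sexes with the P522R variant of Plcg2. All 36 mice carried 5xFAD, so the comparison asks how the amyloid-bearing male cortex differs with M28L, and no response to amyloid itself was measured.

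Plcg2 encodes phospholipase C gamma 2, an enzyme that in the brain is found mostly in microglia, the resident immune cells. It acts below TREM2 and other receptors that signal through the adaptor TYROBP, and it splits a membrane phosphoinositide into inositol trisphosphate, which releases calcium, and diacylglycerol, which activates protein kinase C. In human genetics the M28L variant is associated with a higher risk of Alzheimer's disease and P522R with a lower risk. Microglia around plaques take on a disease-associated state in which genes such as Itgax, Cst7, Clec7a, Gpnmb and Lpl are switched on and homeostatic genes are turned down. Plcg2 itself was not analysed here.

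Each deposited value was a log2 value per mouse and gene, and differences below are M28L_5xFAD males minus 5xFAD males on that scale. Recovered counts ran from 462536 to 1775622 per male mouse and panel. The panel of each gene was inferred from the steps between its values, so the panel sizes given here are inferred as well. A gene carried on both panels would be placed in only 1. In the 5xFAD males the larger inferred panel of 757 genes held 1428825 to 1775622 counts. The smaller inferred panel of 509 genes held 462536 to 680262. In the M28L males the ranges were 1593862 to 1740859 and 596476 to 642696. Defining markers of cortical neurons, astrocytes, oligodendrocytes, microglia and endothelial cells were all detected, from Tmem119 at 41 to 79 counts to Snap25 at 22636 to 26448 counts. The T and B cell markers Cd3d, Cd3e and Ms4a1 gave 1 to 15 counts. The 12 males carry 12 different animal numbers, and the labels name no batch or run. Among the females, a pair of M28L mice share the number 14 and are told apart only by their indices 1 and 8. They enter the male comparison through the shared spread alone, and averaging them into 1 mouse left the same 26 genes called in males. In bulk tissue, fewer cells of a type and less RNA per cell cannot be told apart.

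In males, 26 of the 1266 genes (2.05%) passed an adjusted p of 0.05 in limma, which is what called means here. Of these, 15 were lower with M28L (1.18% of all genes) and 11 were higher (0.869%). The genes that fell were mainly genes of plaque-associated microglia, led by Cd74, Itgax, Ccl3, Cybb and Gpnmb. Those that rose included the activity-induced genes Arc and Egr1 and the stress genes Hspb1, Xbp1 and Cdkn1a. The falls were also the larger changes, with 10 of 15 exceeding 1.5-fold against 2 of the 11 rises. The genes that fell were also less abundant, with a median of mean counts of 134.8 against 692.7 for the rises. The part of abundance in this contrast of sizes was not tested. The median difference over all genes was -0.01.

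For 58 genes (4.58%) the 6 values of one group all lay on one side of the other 6, with 31 genes lower and 27 higher in M28L. Among the called genes this held for 11 of the 15 falls and 8 of the 11 rises. The spread per gene was estimated from all 36 mice. Estimated from the 12 males alone it gave 95 called genes (7.5%), of which 60 were lower (4.74%) and 35 higher (2.76%). Counts of the lists below with the spread from the males alone stand against these shares. At an unadjusted p of 0.05 in the fit to all mice, 86 genes were lower (6.79%) and 55 higher (4.34%), and the unadjusted counts of the lists below stand against these shares. The median standard deviation per gene was 0.088 in the M28L males, 0.121 in the 5xFAD males and 0.213 in the M28L females, the most variable group. Without M28L male 9 the count was 15, and without M28L male 10 it was 17. Centring on the housekeeping genes Gusb and Tbp gave 14 higher and 12 lower genes, 53.8% higher in place of 42.3%. It moved the median of all genes by 0.11. Gusb itself differed by -0.37 ± 0.13 in males (limma adjusted p 0.161) and by -0.57 ± 0.13 in females (0.00969). How far the difference of this reference gene moved the others was not tested.

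**Figure D1:**
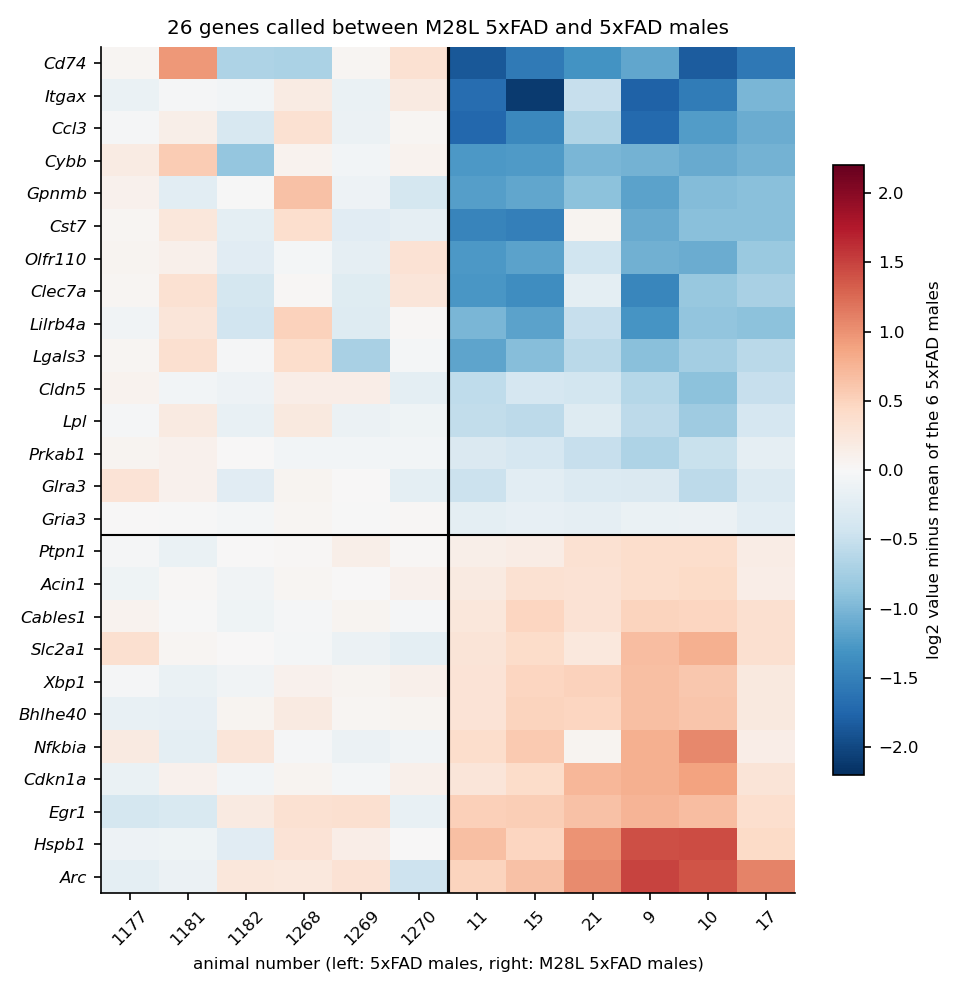
Log2 value of each of the 26 called genes in each of the 12 male mice, minus the mean of the 6 5xFAD males for that gene (colour scale; blue lower, red higher). Columns are mice by animal number with 5xFAD on the left and M28L_5xFAD on the right, rows run from the largest fall (Cd74, -1.55) to the largest rise (Arc, 1.02), and M28L male 21 is the palest of its group for Cst7, Clec7a, Itgax and Ccl3.

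The sequence upstream of 4 called genes with large falls or rises is shown, with windows taken from the RefSeq promoter table (GRCm38.p6). Some called genes with larger changes, among them Cd74 and Egr1, are not shown, so the 4 are examples. Each run covers the 250 bases before the annotated start, written 5′ to 3′ on the strand of the gene. Itgax lies on the plus strand (chr7:128129300-128129549) and Ccl3 on the minus strand (chr11:83649379-83649628). Hspb1 lies on the plus strand (chr5:135887669-135887918) and Nfkbia on the minus strand (chr12:55492648-55492897). Capitals mark matches to 4 motifs searched on both strands: GAGGAAGT, bound by the myeloid factor PU.1, TGANTCA, bound by AP-1, the E-box CACGTG, and the cyclic AMP response element TGACGTCA.
Itgax: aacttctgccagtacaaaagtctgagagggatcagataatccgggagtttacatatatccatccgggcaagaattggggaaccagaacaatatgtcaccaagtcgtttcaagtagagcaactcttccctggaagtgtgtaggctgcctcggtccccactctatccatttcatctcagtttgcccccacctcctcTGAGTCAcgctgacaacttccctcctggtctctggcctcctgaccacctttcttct
Ccl3: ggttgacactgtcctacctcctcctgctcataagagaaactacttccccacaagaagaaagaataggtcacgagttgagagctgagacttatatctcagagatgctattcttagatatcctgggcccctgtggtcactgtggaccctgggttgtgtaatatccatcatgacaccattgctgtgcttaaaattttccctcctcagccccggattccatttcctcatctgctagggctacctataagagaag
Hspb1: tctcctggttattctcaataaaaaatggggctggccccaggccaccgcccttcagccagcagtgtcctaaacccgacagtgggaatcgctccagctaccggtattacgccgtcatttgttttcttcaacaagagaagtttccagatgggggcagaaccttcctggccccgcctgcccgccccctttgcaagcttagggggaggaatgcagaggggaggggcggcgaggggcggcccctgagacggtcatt
Nfkbia: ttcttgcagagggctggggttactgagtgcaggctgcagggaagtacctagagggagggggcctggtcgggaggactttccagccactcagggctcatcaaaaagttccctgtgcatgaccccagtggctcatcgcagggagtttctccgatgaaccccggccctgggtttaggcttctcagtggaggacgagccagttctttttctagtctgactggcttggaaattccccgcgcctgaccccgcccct
Itgax held 1 AP-1 match, at bases -56 to -50 from the start, and the other 3 windows held none of the 4 motifs. The AP-1 motif occurred in 6.75% of all 32851 windows of this length, the E-box in 6.02%, the PU.1 motif in 2.44% and the cyclic AMP response element in 1.55%. Windows were found for 18 of the 26 called genes. Of the 11 windows of genes that fell, Itgax and Cybb held an AP-1 match, and none of the 18 held any of the other 3 motifs. A match is a run of letters and was not tested as a binding site.

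Of 34 measured genes of disease-associated microglia, 10 fell and none rose, against 1.18% of all genes that fell. The median of the list was -0.42, and 31 of its 34 members were below 0, compared with 54.2% of all genes. Members were chosen for this list with earlier results of these data known, so its direction is a description. With the spread from the 12 males alone, 21 of the 34 fell, against 4.74% of all genes. On leaving out each male in turn between 8 and 13 did, where 11 to 19 of all 1266 genes fell.

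The largest fall was that of Cd74, the invariant chain, a chaperone of class II histocompatibility molecules that blocks their peptide groove until it is degraded. Its log2 values were 8.26, 9.01 and 9.92 (lowest, median and highest) in the 5xFAD males and 7.10, 7.39 and 7.82 in the M28L males. Every M28L male lay below every 5xFAD male, and the 5xFAD group was the more scattered, with a standard deviation of 0.63 against 0.28. The difference was -1.55 ± 0.25 (SE; 6 mice a group), a 2.93-fold lower level, with a limma adjusted p of 0.000159.

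Itgax encodes CD11c, an integrin subunit used as a marker of plaque-associated microglia. Its values were 5.68, 5.79 and 6.03 in the 5xFAD males and 3.72, 4.22 and 5.33 in the M28L males. The groups did not overlap, and M28L male 21, at 5.33, stood closest to the 5xFAD males. The difference was -1.43 ± 0.31 (limma adjusted p 0.00696). In counts Itgax was low, with medians of 56.5 and 20.0. With 20 added to each value before the log, its difference was -0.88 (adjusted p 0.0235).

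Among surface receptors, Clec7a, the beta-glucan receptor dectin-1, measured 7.35, 7.78 and 8.07 in 5xFAD and 6.31, 6.68 and 7.52 in M28L. Only M28L male 21 reached the 5xFAD range. The difference was -0.97 ± 0.23 (limma adjusted p 0.0134), and without M28L male 9 it was -0.88 with an adjusted p of 0.0595. Lilrb4a, an inhibitory immunoglobulin-like receptor of myeloid cells, measured 5.80, 6.19 and 6.73 in 5xFAD and 4.93, 5.27 and 5.71 in M28L, again with no overlap. It fell by 0.96 ± 0.19 (limma adjusted p 0.0023).

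Ccl3, a chemokine that draws in leukocytes, had the smallest p of the comparison. Its values were 7.07, 7.42 and 7.75 in the 5xFAD males and 5.69, 6.10 and 6.75 in the M28L males, without overlap. It fell by 1.30 ± 0.18, which is 2.47-fold, with a limma adjusted p of 2.85e-05. No other member of the list of 20 cytokines and chemokines was called, and the median of that list was 0.00.

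Cst7 encodes cystatin F, an inhibitor of lysosomal cathepsins. Its values were 9.67, 9.84 and 10.28 in 5xFAD and 8.41, 8.90 and 9.97 in M28L. Here 5 M28L males lay below all 5xFAD males, while male 21, at 9.97, lay above 4 of the 6. The difference was -0.98 ± 0.24 (limma adjusted p 0.0158). It missed the threshold without M28L male 11 (-0.88, adjusted p 0.0527), without M28L male 15 (-0.87, 0.0512) and without 5xFAD male 1268 (-0.90, 0.055).

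Gpnmb, a glycoprotein of lysosome-rich phagocytes, measured 6.76, 7.09 and 7.79 in 5xFAD and 5.94, 6.10 and 6.25 in M28L. The M28L males formed a tight group, with a standard deviation of 0.14 against 0.36, and none reached the 5xFAD range. Gpnmb fell by 1.05 ± 0.27 (limma adjusted p 0.0246). Leaving out any of 4 mice ended this call, with adjusted p of 0.0527 without M28L male 11, 0.0692 without M28L male 9, 0.0594 without 5xFAD male 1177 and 0.0955 without 5xFAD male 1268.

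Cybb, the catalytic subunit of the phagocyte NADPH oxidase, was the least abundant called gene, with a mean of 31.8 counts. It measured 4.56, 5.49 and 5.97 in 5xFAD and 4.15, 4.32 and 4.40 in M28L, a difference of -1.12 ± 0.20 (limma adjusted p 0.001). With a pseudocount of 20 it was -0.67 (adjusted p 0.00134). The 5xFAD male at 4.56 (animal 1182) was the only one of its group near the M28L values.

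Lgals3, the sugar-binding protein galectin-3 of activated phagocytes, measured 5.10, 5.82 and 6.19 in 5xFAD and 4.64, 4.97 and 5.22 in M28L. The groups met at 5xFAD male 1269, and the difference was -0.83 ± 0.19 (limma adjusted p 0.0114). Lpl, lipoprotein lipase, which releases fatty acids from lipoproteins, had 202, 238.5 and 278 recovered counts in 5xFAD and 144, 180.5 and 199 in M28L with no overlap. Its fall was the smallest of the 10, at 0.52 ± 0.12 (limma adjusted p 0.00772).

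**Figure D2:**
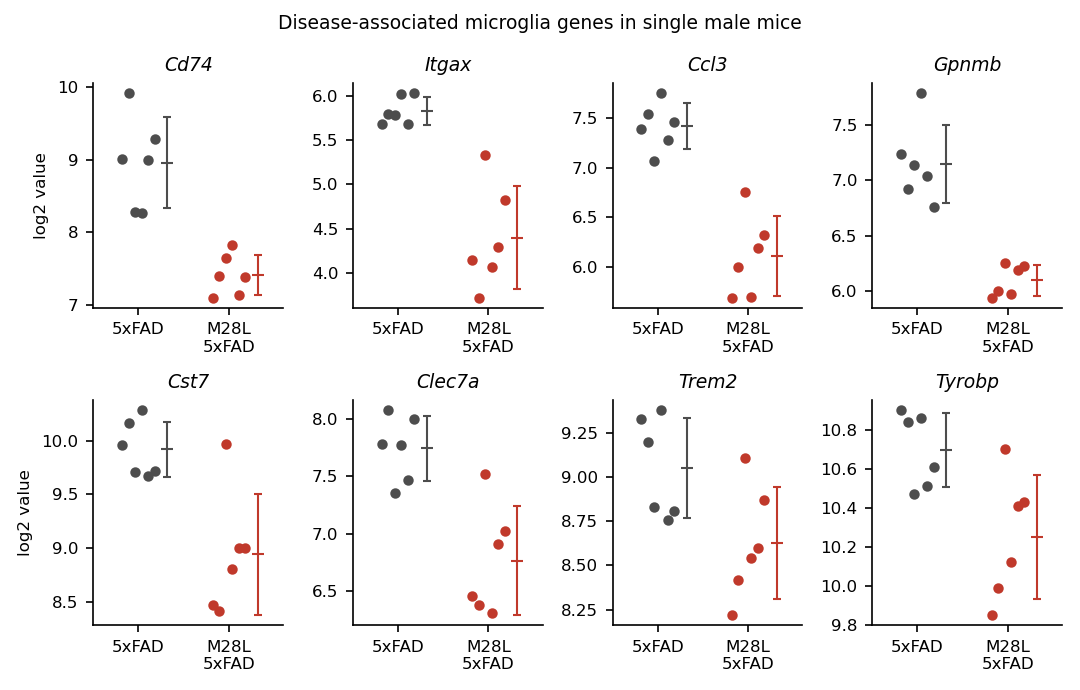
Log2 values of 8 disease-associated microglia genes in each of the 6 5xFAD males (grey) and 6 M28L_5xFAD males (red); each point is 1 mouse, and the bar beside the points gives the mean and standard deviation. The groups are separate for Cd74, Itgax, Ccl3 and Gpnmb, while for Cst7, Clec7a, Trem2 and Tyrobp the highest M28L male lies within the 5xFAD range; axes do not start at 0.

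The receptor complex above phospholipase C gamma 2 gave smaller differences. Trem2, the microglial lipid receptor, measured 8.76, 9.01 and 9.38 in 5xFAD and 8.22, 8.57 and 9.11 in M28L. The difference was -0.43 ± 0.18 with a 95% interval of -0.78 to -0.07, and it did not pass the adjusted threshold (limma adjusted p 0.288). Tyrobp, its signalling adaptor, measured 10.47, 10.72 and 10.90 in 5xFAD and 9.85, 10.26 and 10.70 in M28L. Its difference was -0.45 ± 0.16 (limma adjusted p 0.206), and with the spread from the 12 males alone the same difference was called (adjusted p 0.0303). In both genes the highest M28L male was number 21, and the groups overlapped.

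The 24 uncalled members of the disease-associated list ran from -0.64 to 0.16 with a median of -0.30. Apoe, the main lipid carrier of the brain and itself a gene of the plaque response, measured 13.02, 13.16 and 13.36 in 5xFAD and 13.07, 13.18 and 13.31 in M28L. The groups overlapped over nearly their whole range, and the 95% interval of the difference was -0.22 to 0.22 (limma adjusted p 0.997). Cd33, a sialic acid receptor that restrains microglia, and Cd68, a lysosomal membrane glycoprotein of phagocytes, lay just outside the threshold, both at a limma adjusted p of 0.0578. Cd33 differed by -0.45 ± 0.13 and Cd68 by -0.55 ± 0.16, and in each 5 of 6 M28L males were below all 5xFAD males.

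Homeostatic microglia genes, which mark microglia away from plaques, did not all move in the same direction. Of 27 measured, none fell, and the 1 that rose was Egr1, a gene that neurons also induce with activity. The median was -0.10, and 19 of the 27 were below 0 (70.4%), compared with 54.2% of all genes. Cx3cr1, the fractalkine receptor, measured 9.12, 9.37 and 9.68 in 5xFAD and 8.71, 8.97 and 9.33 in M28L, a difference of -0.41 ± 0.14 (limma adjusted p 0.156). Tgfbr2, the receptor for the cytokine that keeps microglia in the homeostatic state, differed by -0.35 ± 0.12 (limma adjusted p 0.153). P2ry12, a purine receptor, had median counts of 553.5 in 5xFAD and 555.0 in M28L, and Tmem119 had 57.5 and 73.5, with differences of -0.09 ± 0.12 and 0.34 ± 0.15. Summed over the 27 genes, counts were 40414 to 58304 in the 5xFAD males and 53779 to 56787 in the M28L males. The sum takes in Egr1, with median counts of 3750.0 in 5xFAD and 5996.5 in M28L, so it does not measure microglia alone. The part of microglial number in the falls was not tested. At an unadjusted p of 0.05, 7 of the 27 were lower and 4 higher, against 6.79% and 4.34% of all genes. With the spread from the males alone 5 fell, and Egr1 and Fos rose, against 4.74% lower and 2.76% higher over all genes.

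The 8 measured antigen presentation genes were all below 0, with a median of -0.35, and only Cd74 was called. Of the 8, 6 were lower at an unadjusted p of 0.05, against 6.79% of all genes. With the spread from the males alone 3 fell, against 4.74%. The difference was -0.35 ± 0.12 for B2m, the light chain of class I molecules (limma adjusted p 0.156), and -0.27 ± 0.09 for the class I gene H2.T23 (adjusted p 0.118). Of 15 complement and Fc receptor genes only Itgax was called, and the list median was -0.25. Against the same shares, 6 of the 15 were lower at an unadjusted p of 0.05 and 4 fell with the spread from the males alone. Cd14, the lipopolysaccharide co-receptor, lay lower in every M28L male (6.09 to 6.49) than in any 5xFAD male (6.51 to 7.53), and its difference of -0.58 ± 0.18 had a limma adjusted p of 0.105. None of 24 lysosomal genes passed limma's adjusted threshold. At an unadjusted p of 0.05, 5 were lower, against 6.79% of all genes, and 5 fell with the spread from the males alone, against 4.74%. Their median was -0.13. Gusb, a lysosomal enzyme gene that is also used as a housekeeping gene, differed by -0.37 ± 0.13 (limma adjusted p 0.161).

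Among the other 5 genes that fell was Olfr110, named for the olfactory receptor family. It measured 5.99, 6.24 and 6.55 in 5xFAD and 4.96, 5.16 and 5.79 in M28L. There was no overlap, and it fell by 0.97 ± 0.17 (limma adjusted p 0.000421). Prkab1, a regulatory subunit of the energy sensor AMP-activated kinase, measured 8.01, 8.05 and 8.17 in 5xFAD and 7.39, 7.64 and 7.87 in M28L, a fall of 0.43 ± 0.09 (limma adjusted p 0.00244). With housekeeping centring its difference was -0.32 and was no longer called (adjusted p 0.32).

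Cldn5 encodes claudin-5, the tight junction protein of the blood-brain barrier. Its values were 8.66, 8.89 and 9.03 in 5xFAD and 7.98, 8.34 and 8.50 in M28L, with no overlap and M28L male 10 lowest. It fell by 0.56 ± 0.12 (limma adjusted p 0.00772), and with housekeeping centring the difference was -0.45 (adjusted p 0.0983). The list of 20 endothelial and pericyte genes had 1 fall, 1 rise and a median of 0.03. Pecam1, a general endothelial marker, differed by -0.22 ± 0.12 (limma adjusted p 0.522). Emcn, an endothelial sialomucin, was lower in all 6 M28L males than in any 5xFAD male, with a difference of -0.30 ± 0.12 (adjusted p 0.25). Slc2a1, the endothelial and astrocytic glucose transporter, was the member that rose.

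The remaining falls were in neuronal receptor subunits. Gria3, a subunit of AMPA glutamate receptors, measured 12.51, 12.56 and 12.59 in 5xFAD and 12.33, 12.37 and 12.42 in M28L. Although the groups did not overlap, the difference was -0.18 ± 0.05, a 1.13-fold lower level (limma adjusted p 0.0246). This call depended on the scaling. Gria3 was at -0.17 with median centring (adjusted p 0.0709), at -0.13 with centring within each panel (0.165), at -0.18 with quantile normalization (0.0716) and at -0.07 with housekeeping centring (0.867). It also missed the threshold without M28L male 11, M28L male 17, 5xFAD male 1268 or 5xFAD male 1270, with adjusted p of 0.0527 to 0.063. Glra3, a glycine receptor subunit, measured 6.97, 7.27 and 7.53 in 5xFAD and 6.65, 6.91 and 6.99 in M28L. Its difference of -0.36 ± 0.10 was the last to pass (limma adjusted p 0.0441), and leaving out any of 9 mice ended the call, with adjusted p up to 0.178 (without 5xFAD male 1177). Glra3 was also not called with centring within each panel (-0.31, adjusted p 0.101) or with housekeeping centring (-0.25, 0.618).

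Neuronal genes as a list showed little difference. Of 43 neuron and synapse genes Gria3 alone was called, and with the spread from the males alone Gria3, Snap25 and Syt1 fell. The list median was -0.05, and the 95% interval for Syt1, the synaptic calcium sensor, was -0.22 to 0.00. None of 20 inhibitory neuron genes was called by limma, with 2 lower and 1 higher at an unadjusted p of 0.05, against 6.79% and 4.34% of all genes. With the spread from the males alone 2 fell and 1 rose. Calb2, the calcium-binding protein calretinin of interneurons, was the gene on the higher side, at 0.38 ± 0.16 (limma adjusted p 0.282).

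The genes that rose were led by Arc, which neurons transcribe within minutes of synaptic activity and whose protein tunes AMPA receptors. Its values were 8.81, 9.32 and 9.58 in the 5xFAD males and 9.75, 10.32 and 10.75 in the M28L males. Every M28L male was above every 5xFAD male, with animals 9 and 10 highest. Arc rose by 1.02 ± 0.25, which is 2.03-fold (limma adjusted p 0.0158). It missed the threshold without 5xFAD male 1270 (0.93, adjusted p 0.0558), without M28L male 9 (0.93, 0.0692) and without M28L male 10 (0.95, 0.0591).

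Egr1, an immediate early transcription factor, measured 11.49, 11.89 and 12.24 in 5xFAD and 12.25, 12.47 and 12.63 in M28L. The 2 groups only just separated, and the 5xFAD males were the more scattered, with a standard deviation of 0.34 against 0.14. Egr1 rose by 0.58 ± 0.15 (limma adjusted p 0.0246), and leaving out M28L male 9 or 10 or 5xFAD male 1177, 1181 or 1270 gave adjusted p of 0.0618 to 0.0981. Of the 9 immediate early genes measured, these were the 2 that rose, against 0.869% of all genes, and none fell. The list median was 0.48 against -0.01 for all genes. This list too was chosen with earlier results of these data known, so its direction is a description. Nr4a2, an orphan nuclear receptor, lay just outside the threshold at 0.30 ± 0.09 (limma adjusted p 0.0578), with all 6 M28L males above all 5xFAD males. Fos, an AP-1 subunit, differed by 0.70 (adjusted p 0.282) and was called, as was Nr4a2, with the spread from the males alone. The other members were not called, with differences of 0.53 for Egr2, 0.48 for Npas4, 0.12 for Homer1, 0.10 for Jun and 0.00 for Bdnf, which encodes a neurotrophin. The labels give no handling or time of death to set beside these genes.

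Hspb1, a small heat shock protein of astrocytes and vessels, measured 6.26, 6.47 and 6.81 in 5xFAD and 6.93, 7.34 and 7.94 in M28L. All M28L males were above the 5xFAD males, and animals 9 and 10, at 7.92 and 7.94, stood highest. Hspb1 rose by 0.90 ± 0.20, which is 1.87-fold (limma adjusted p 0.00772). It was the only called gene among 32 reactive astrocyte genes, whose median was 0.00. Gfap, the intermediate filament of reactive astrocytes, differed by -0.38 (adjusted p 0.331).

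Xbp1, the transcription factor of the unfolded protein response, measured 10.60, 10.77 and 10.86 in 5xFAD and 10.96, 11.24 and 11.41 in M28L. It rose by 0.46 ± 0.09 (limma adjusted p 0.00175) with no overlap between the groups. Nfkbia, the inhibitor and target of NF-kB, measured 7.38, 7.55 and 7.86 in 5xFAD and 7.66, 8.08 and 8.65 in M28L. M28L males 21 and 17 lay within the 5xFAD range, and the difference was 0.50 ± 0.13 (limma adjusted p 0.0298). Leaving out any of 7 mice ended the Nfkbia call, with adjusted p up to 0.14 without M28L male 10. Among 16 genes of innate sensing and NF-kB it was the only one called, and the receptor Tlr2 differed by -0.41 ± 0.14 (adjusted p 0.155).

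Cdkn1a encodes an inhibitor of cyclin-dependent kinases that the tumour suppressor Trp53 induces. Its values were 7.91, 8.06 and 8.17 in 5xFAD and 8.33, 8.62 and 8.94 in M28L. There was no overlap and the difference was 0.56 ± 0.15 (limma adjusted p 0.0411), but leaving out any of 9 mice took the adjusted p to between 0.0559 and 0.14. Without a trend in eBayes it was 0.0588. No other gene of the 22 in the list of apoptosis and cell cycle arrest was called. Trp53 itself differed by -0.01.

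Slc2a1 measured 7.68, 7.89 and 8.25 in 5xFAD and 8.13, 8.27 and 8.68 in M28L, and 5xFAD male 1177 reached into the M28L range. It rose by 0.45 ± 0.12 (limma adjusted p 0.0298), and its call ended on leaving out any of 7 mice, with adjusted p up to 0.14. Bhlhe40, a clock-linked transcriptional repressor, measured 11.21, 11.43 and 11.58 in 5xFAD and 11.60, 11.87 and 12.05 in M28L. It rose by 0.46 ± 0.12 (limma adjusted p 0.0246) and was lost on leaving out M28L male 9 or 10 or 5xFAD male 1177 or 1181 (adjusted p 0.0778 to 0.0923).

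**Figure D3:**
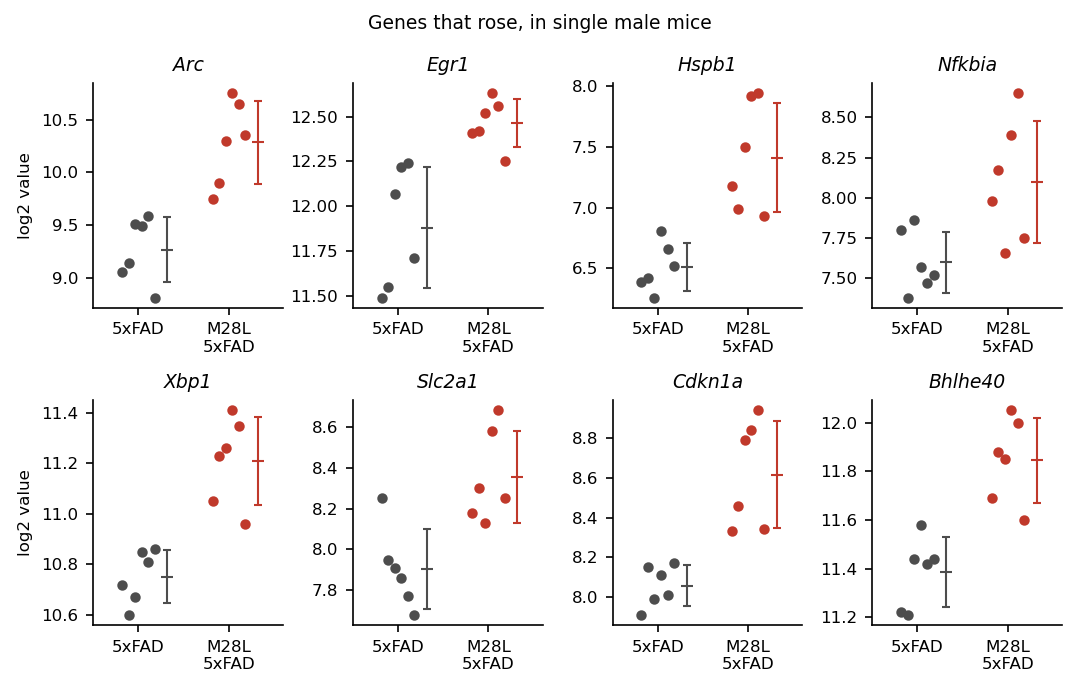
Log2 values of 8 genes that rose with M28L, in each of the 6 5xFAD males (grey) and 6 M28L_5xFAD males (red), drawn as for the microglial genes with the mean and standard deviation beside the points. The groups do not overlap for Arc, Egr1, Hspb1, Xbp1, Cdkn1a and Bhlhe40 and overlap for Nfkbia and Slc2a1; axes do not start at 0.

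Cables1, an adaptor between cyclin-dependent kinases and other kinases, had the smallest p of the rises. It measured 8.50, 8.58 and 8.67 in 5xFAD and 8.84, 9.00 and 9.08 in M28L, a rise of 0.39 ± 0.07 (limma adjusted p 0.00141). Acin1, a nuclear protein of splicing and apoptotic chromatin condensation, rose by 0.30 ± 0.08 (limma adjusted p 0.0246). Ptpn1, a tyrosine phosphatase that dampens insulin signalling, rose by 0.26 ± 0.07 (limma adjusted p 0.0367). Leaving out any of 5 mice ended the Acin1 call and any of 8 the Ptpn1 call, with adjusted p up to 0.101 and 0.138. With housekeeping centring neither was called (Acin1 0.41, adjusted p 0.0854; Ptpn1 0.37, 0.0967), and without the P522R mice Ptpn1 had an adjusted p of 0.0529.

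Falls and rises were not evenly spread over the 2 panels, to which genes were assigned by inference. All 7 called genes of the smaller panel rose, while the larger panel held 15 falls and 4 rises. The median difference was 0.03 over the smaller panel, where 61.7% of genes were above 0, and -0.04 over the larger panel, where 35.1% were. After each panel was centred on its own median, 30 genes were called, 11 higher and 19 lower, and 20 of the original 26 were among them. The 4 rises no longer called were Acin1 (0.21, adjusted p 0.26), Cdkn1a (0.47, 0.0815), Nfkbia (0.41, 0.0681) and Slc2a1 (0.36, 0.112), all on the smaller panel. The 2 falls no longer called were Gria3 and Glra3. The 10 disease-associated microglia genes all stayed called.

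Phospholipase C, protein kinase C and calcium signalling genes, the pathway that phospholipase C gamma 2 feeds, showed no call by limma among 27 measured. Their median was -0.04, all lay between -0.14 (Dgkb, a diacylglycerol kinase) and 0.18 (Plcb3), and 3 were lower at an unadjusted p of 0.05, against 6.79% of all genes. With the spread from the males alone Plcb1 and Ppp3cb fell and Plcl2 rose. Plcb4, a phospholipase C isoform, and Ppp3cb, a calcineurin catalytic subunit, were lower in all 6 M28L males than in any 5xFAD male, each by 0.12. After centring within each panel the differences were -0.08 and -0.07. On the smaller panel the same centring moved Plcb1 from -0.11 to -0.20 (adjusted p 0.0637), Dgkb from -0.14 to -0.24 and Plcb3 from 0.18 to 0.09, none of them called.

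Amyloid genes did not differ beyond the spread. App, the precursor of the amyloid peptide, measured 14.67, 14.85 and 15.00 in 5xFAD and 14.71, 14.81 and 14.82 in M28L. The 95% interval of its difference was -0.24 to 0.12 (limma adjusted p 0.868). Whether the probe also counts the human transgene was not tested. None of 12 amyloid processing genes was called by limma or reached an unadjusted p of 0.05. The same was true of 7 interferon response genes, 8 astrocyte genes, 19 myelinating oligodendrocyte genes, 4 oligodendrocyte precursor genes and 12 autophagy genes, each also with 0 calls when the spread came from the males alone. Their medians were 0.01, -0.04, -0.04, 0.00 and -0.01. Among these lists the smallest adjusted p was 0.539, for Plxnb3, a semaphorin receptor of oligodendrocytes.

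Markers of infiltrating cells were near the floor of the assay. Of 25 lymphocyte and natural killer cell genes 22 averaged under 20 counts, none was called by limma or reached an unadjusted p of 0.05, and their median was 0.23. Of 12 border macrophage, monocyte, neutrophil and mast cell genes 8 averaged under 20 counts. None of these was called, and the mast cell genes Tpsb2 and Hdc were higher at an unadjusted p of 0.05, with differences of 1.07 ± 0.50 and 0.88 ± 0.37 (limma adjusted p 0.389 and 0.31). Summed counts of the 12 genes were 190 to 235 in 5xFAD and 203 to 249 in M28L.

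**Figure D4:**
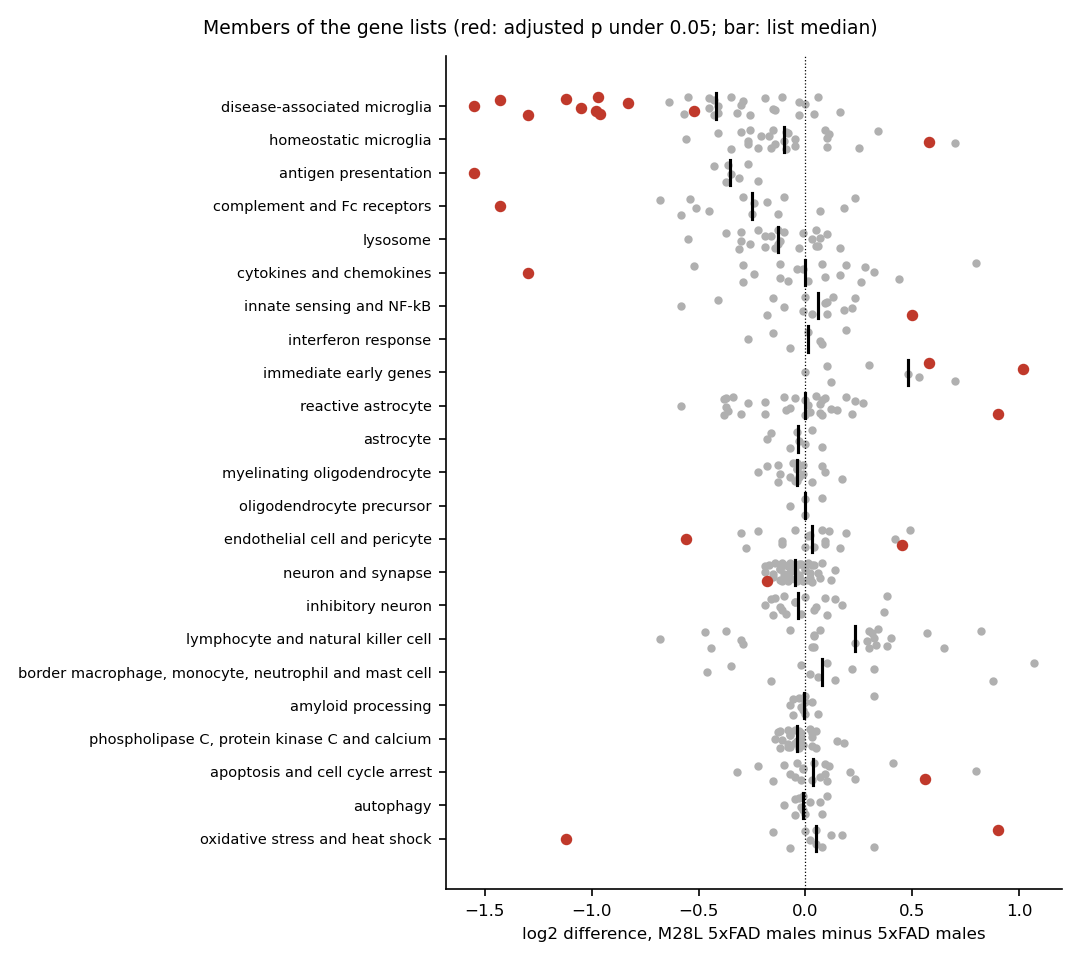
Log2 difference between M28L_5xFAD and 5xFAD males for each measured member of 23 gene lists, 1 point per gene, with called genes in red, the others in grey and the list median as a black bar. The disease-associated microglia list (10 falls, median -0.42) lies to the left, as do antigen presentation (median -0.35) and complement and Fc receptors (-0.25). Immediate early genes (2 rises, median 0.48) lie to the right, as do the scarce lymphocyte and natural killer cell genes (0.23). The astrocyte, oligodendrocyte, neuronal and amyloid lists are centred near 0.

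Outside the lists, Olfm3, a neuronal olfactomedin, and Mtmr4, a phosphoinositide phosphatase, also lay just past the threshold at a limma adjusted p of 0.0578. Olfm3 differed by -0.26 ± 0.08 and Mtmr4 by 0.26 ± 0.08. Just inside it were Cdkn1a (0.0411) and Glra3 (0.0441).

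The M28L males differed among themselves. Over the 15 genes that fell, the median deviation from the 5xFAD mean was -0.50 in male 21 and -0.81 to -1.21 in the other 5. Male 21 was still below all 5xFAD males in 12 of the 15 genes. Over the 11 genes that rose, males 9 and 10 had the highest median deviation, 0.68 each, and males 11 and 17 the lowest, at 0.30 and 0.28. Male 11 thus had the deepest falls and male 17 the smallest rises, so the order of the mice was not the same for falls and rises. These genes were chosen on the same mice, and the deviations describe them without a test. Males 11, 15 and 21 carry the indices 1 to 3 in the column names and males 9, 10 and 17 the indices 7 to 9, with no meaning given. With only indices 1 to 3 kept, 4 genes were called (Ccl3, Cd74, Cybb and Olfr110), and with only 7 to 9 kept, 17 were. The first 3 principal components of the 12 males, over 1150 genes with a mean of at least 20 counts, held 34.4%, 15.7% and 11.1% of the variance. On the first, M28L males lay at -4.31 to -0.86 and 5xFAD males at 0.80 to 4.87, with M28L male 21 nearest to the 5xFAD side.

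Leaving out each male in turn left 3 to 11 genes higher and 11 to 19 lower. The fewest rises were called without M28L male 9 or 10 (3 each), 5xFAD male 1181 or 1270 (5 each), 5xFAD male 1177 (6) and 5xFAD male 1182 or 1268 (7 each). Cables1, Hspb1 and Xbp1 rose in all 12 of these fits. The falls called in all 12 were Ccl3, Cd74, Cldn5, Cybb, Itgax, Lgals3, Lilrb4a, Lpl, Olfr110 and Prkab1.

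In females, which share no mouse with the males, 49 genes (3.87%) were called for the same pair of genotypes, 24 higher and 25 lower. All 26 genes called in males had the same sign in females, compared with 66.4% of all genes. Of the 26, 16 were also called in females, which is 61.5% of the male and 32.7% of the female calls. These were 12 of the 15 falls and 4 of the 11 rises. These counts take the pair of M28L females numbered 14 as separate mice. Their counts differed beyond counting noise (chi-square per degree of freedom of 9.44 on the larger and 5.03 on the smaller panel), and the standard deviation of their log2 difference over genes, 0.25, lay within the 0.20 to 0.52 of the other 14 pairs of M28L females. With the pair averaged into 1 mouse, 38 genes were called in females and 13 of the 26 were among them, 9 falls and 4 rises, with the same sign in all 26. Cd74 was then at -0.84 in females with an adjusted p of 0.0703. The falls not called in females were Prkab1 (-0.21, limma adjusted p 0.167), Gria3 (-0.15, 0.0519) and Glra3 (-0.12, 0.55). Arc rose in males and had a female difference of 0.67 ± 0.25 (adjusted p 0.122), and Hspb1 one of 0.60 ± 0.20 (0.0861). Across the 1266 genes the differences of the 2 sexes had a Pearson r of 0.56 and a Spearman rho of 0.50, given as a description across genes that are not independent.

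The difference between the sexes was tested directly with an interaction term. No gene passed limma's adjusted threshold, with 34 at an unadjusted p of 0.05, and none passed under any alternative run. Cd74 differed by -1.55 in males and -0.82 ± 0.25 in females, an interaction of -0.73 ± 0.35 with a limma adjusted p of 1.0. Gpnmb went the other way, with -1.05 in males and -1.66 ± 0.27 in females (interaction 0.61 ± 0.38). The 5 smallest interaction p-values belonged to Klrk1, Cysltr1, Il4, Fas and Trim17, all with an adjusted p of 1.0. Klrk1, an activating receptor of natural killer cells, was at -0.47 ± 0.28 in males and 0.97 ± 0.28 in females, at a mean of 10.8 counts in the males. In females its median counts were lower still, at 2.5 in 5xFAD and 4.5 in M28L. Cysltr1, a leukotriene receptor, was at 0.63 ± 0.22 in males and -0.31 ± 0.22 in females.

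**Figure D5:**
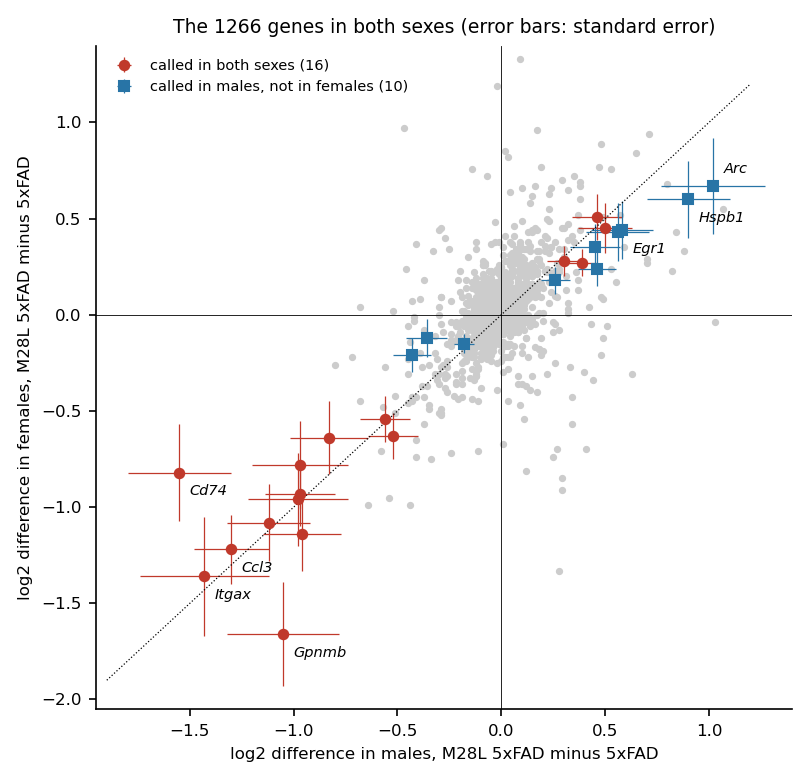
Log2 difference between M28L_5xFAD and 5xFAD in males (horizontal) and females (vertical) for the 1266 genes (grey), with the 26 genes called in males drawn with standard errors. Red circles are the 16 also called in females and blue squares the 10 that were not; all 26 lie below 0 in both sexes or above 0 in both, and the dotted line marks equal differences.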

How the data were processed

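Cortical RNA of 36 mice was measured on 2 nCounter panels. The table deposited by the authors holds a log2 value for each gene and mouse, with a normalization not given in the sources used here. Of the rows, 251 named no gene and held no value. On the linear scale 100.0% of values were whole multiples of a step per mouse and panel, within 0.05 counts, which gave back the counts used for depth. Each gene was assigned to the panel whose step left its values nearest to whole counts over all mice.

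The comparison was fitted on the deposited log2 values, with a mean for each of 6 groups, in limma 3.58.1 (R 4.3.3), with all 36 mice sharing the spread, eBayes with a trend, and two-sided p-values adjusted by Benjamini-Hochberg over 1266 genes at 0.05. The fit was tested on simulated data. P-values measure the spread between these mice. Named were all genes called in males, Trem2, Tyrobp, Apoe and App, the smallest p of each list, the next 5 genes and the 5 smallest interaction p-values, with other list members added for context; some genes that this rule takes are left out. Lists and tests were chosen with earlier results of these data known. Of the symbols, 1251 matched the GRCm38.p6 table directly, 3 as hyphenated names and 6 as synonyms, and 6 did not match. The deviations of same-numbered males had r of -0.09, -0.17 and -0.20 for indices 1 to 3, the only ones in both male groups. Differently numbered pairs were not set beside these values, and a shared origin or run behind the indices was not tested. The 28 alternatives covered scaling, filters, a pseudocount of 20, variance models, index subsets, an index block, leaving out each male and, chosen after seeing the data, averaging the pair of females that share an animal number.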

Additional observations from a re-analysis of the deposited data

Results flagged for a closer look

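Ncr1, a receptor of natural killer cells, had 1 mouse apart from its group. In the 5xFAD males, animal 1269 was the lowest at a log2 value of 0.10, which is 1 count, and its gap to the next mouse was 0.63 of the range of the group. That is just past Dixon's critical ratio for a group of this size. Ncr1 averaged 6.5 counts in the 12 males. This was 1 of 166 groups examined (0.602%), where chance alone marks about 1 in 20.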

How the results depend on the processing

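The count of 26 genes called in males was 25 to 33 with median centring, centring within each panel, quantile normalization, housekeeping centring, a pseudocount of 20, the females of one number averaged, filters at a mean log2 of 5 or a mean of 20 counts, and eBayes without a trend or with robust settings. It was 42 without the P522R mice, 95 with the 12 males alone and 127 with array weights, and the spread per group is given above. It was 4 with M28L males of index 1 to 3 and 17 with those of index 7 to 9, where 3 M28L mice remain. With the index number as a replicate block it was 6. Only indices 1 to 3 occur in both male groups, so that fit compares 3 mice a group. Same-numbered mice share no stated origin. Leaving out each mouse in turn gave 15 to 28. All 26 genes kept their sign under every alternative that tested them, and Cd74 alone was called under all of them. The interaction count was 0 throughout. Depth limits the lymphocyte and mast cell genes, most of them under 20 counts.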
